A study of Homo sapiens with 18 samples.

Results

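RNA sequencing counts were examined for 10 genes that encode subunits of the SWI/SNF chromatin remodeling complexes, PHF10, DPF2, ARID1A, ARID1B, ARID2, SMARCA2, SMARCA4, SMARCB1, SMARCC1 and BCL7A, out of 58037 genes in the count table. The genes were chosen by name and with earlier results of these data known, among them the changes that followed treatment with the Menin inhibitor (MI) SNDX-50469. The members are therefore taken as selected on these very measurements, so their values are given as a description and carry no p-value. The subunits outside the list carry one, although their list was also drawn up with earlier results known. All 10 were tested in every fit. A gene is called higher or lower where its adjusted p was below 0.05 and its log2 change at least 0.32 in either direction. The latter is the fold limit of the study. For a member, a call only sorts selected values and is not evidence from a test.

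The samples were 3 human acute myeloid leukemia (AML) cell lines in 18 libraries of 8 groups, harvested after 16 h. MOLM13 cells, which carry the MLL-AF9 fusion, were left untreated or given 500 nM SNDX-50469 (VTP in the sample titles), 500 nM of the BET inhibitor OTX015, or the combination, in 2 libraries for each condition. MV4-11 cells, which carry an MLL rearrangement, were untreated or given 1000 nM SNDX-50469, again in duplicate (n = 2). OCI-AML3 cells, with mutant NPM1 and germline MLL, were untreated or given 500 nM SNDX-50469 (n = 3 for each). Each line is 1 established culture, and all groups of a line share its genotype, medium and 20% fetal bovine serum. The MI blocks the contact of Menin with MLL, the histone methyltransferase encoded by KMT2A, and OTX015 displaces BET bromodomain proteins from acetylated chromatin. MV4-11 differed from the other lines in dose and medium, and these cannot be told apart from the line in any comparison across lines.

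SWI/SNF complexes use ATP to slide and eject nucleosomes and so open promoters and enhancers. A shared core of SMARCC, SMARCD and ATPase subunits is assembled with different partners into 3 forms. Canonical BAF holds ARID1A or ARID1B together with a double PHD finger protein such as DPF2, PBAF holds ARID2, PBRM1, BRD7 and PHF10, and the non-canonical form holds BRD9 and BICRA or BICRAL. In blood cells these complexes support both stem cell upkeep and lineage factors such as PU.1, and AML cells depend on the ATPase SMARCA4. A lower mRNA level in bulk RNA cannot distinguish fewer cells with the transcript from less transcript per cell.

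Library totals lay between 19320216 and 59711884 counts, with the deepest libraries in OCI-AML3. Mitochondrial transcripts made up 4.36% to 10.3% of the counts, the highest share being that of MV4-11 control replicate 1, against 5.60% in the other MV4-11 control, and the MV4-11 replicates differed from each other more than those of the other lines. The myeloid identity of the lines was visible in the 7 markers listed (PTPRC, SPI1, CD33, CEBPA, CSF3R, MPO and LYZ), except that MPO was low in OCI-AML3 and in part of MOLM13. Their summed level in MOLM13 was 1394 to 1419 library-scaled counts (CPM) in controls, 1725 to 1755 with the MI, 849.5 to 894.1 with OTX015 and 1373 to 1397 with both agents. It was 2712 to 3017 CPM in MV4-11 controls against 3425 to 3430 with the MI, and 1082 to 1175 in OCI-AML3 controls against 1073 to 1076. Whether these shifts play a part in the subunit values was not tested. Of the other cell types, the 5 lymphoid markers summed to at most 9.84 CPM and the 6 epithelial and stromal markers to at most 14.9. Among these, KRT8 was at 7.38 to 13.95 CPM in MV4-11 and CD3D at up to 6.20 CPM in MOLM13. HBB, KRT19 and COL3A1 were at 0 in every library. The myeloid marker MPO was itself low in OCI-AML3, at 2.51 to 3.28 CPM, and ran from 3.71 to 162 CPM in MOLM13. LYZ alone was at 1722 to 1923 CPM in MV4-11. As a check of the agents, MEIS1, an MLL target, had log2 changes with the MI of -2.60 in MOLM13, -1.86 in MV4-11 and -0.49 in OCI-AML3 (edgeR adjusted p at most 2.08e-06), and of -0.50 with both agents in MOLM13 (edgeR adjusted p = 2.15e-08). MEIS1 with both agents stood 2.10 above the MI alone (edgeR adjusted p = 2.26e-28). HEXIM1, known to rise upon BET inhibition, rose by 2.11 with OTX015 in MOLM13 (edgeR adjusted p = 7.7e-44). HEXIM1 also rose with the MI, by 0.77 in MV4-11 (edgeR adjusted p = 0.00175) and 0.33 in OCI-AML3 (edgeR adjusted p = 2.57e-06). In MOLM13 the MI changed HEXIM1 by 0.25, which was not called.

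Leaving aside the low counts of BCL7A in OCI-AML3, PHF10 gave the largest change with a treatment among the 10 genes. BCL7A differed most between the untreated lines, and the promoters of both genes are shown for these reasons. Both windows are the 250 bases upstream of the RefSeq start on GRCh38.p14, read on the strand of the gene. The PHF10 window lies at chr6:169724501-169724750 (minus strand) and that of BCL7A at chr12:122021634-122021883 (plus strand). Capitals mark matches to the GC box GGGCGG or its reverse complement CCGCCC, searched on both strands, with overlapping matches counted apart.
PHF10: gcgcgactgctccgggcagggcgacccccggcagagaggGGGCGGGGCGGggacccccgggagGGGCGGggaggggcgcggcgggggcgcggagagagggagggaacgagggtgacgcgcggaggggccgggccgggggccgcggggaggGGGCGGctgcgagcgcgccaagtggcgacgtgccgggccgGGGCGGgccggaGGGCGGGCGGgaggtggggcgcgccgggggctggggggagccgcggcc
BCL7A: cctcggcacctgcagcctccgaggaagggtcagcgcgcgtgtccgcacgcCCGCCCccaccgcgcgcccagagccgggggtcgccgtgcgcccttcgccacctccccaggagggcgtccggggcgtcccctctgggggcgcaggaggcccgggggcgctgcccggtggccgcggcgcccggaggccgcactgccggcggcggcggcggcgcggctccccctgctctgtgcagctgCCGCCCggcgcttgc
The windows held 86.4% and 82.4% G and C and 39 and 38 CpG dinucleotides, respectively, whereas the median of 35116 promoters was 58% and 11. PHF10 had 7 GC box matches and BCL7A had 2, and 42.6% of all promoters of this length had at least 1. Neither window held an E-box (CACGTG), an ETS core (CCGGAAG), a cAMP response element (TGACGT) or a TATA box (TATAAA), which occurred in 6.34%, 8.52%, 7.1% and 10.7% of promoters on either strand.

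PHF10 (ENSG00000130024.14, chr6:169703902-169724500, minus strand) encodes the PHD finger subunit of PBAF. Following SNDX-50469 treatment its mRNA was lower in all 3 lines, and OTX015 alone left it close to the control. In MOLM13, the control libraries had 135.4 and 128.1 CPM and the MI-treated libraries 86.3 and 90.4 CPM. With OTX015 the libraries had 130.4 and 121.4 CPM, and with both agents 74.3 and 76.95 CPM. The MI groups thus lay wholly below the controls, whereas the OTX015 libraries overlapped them. MV4-11 went from 209.0 and 194.3 CPM in controls to 91.2 and 99.5 CPM with the MI, again without overlap. OCI-AML3 went from 276.2, 269.5 and 273.1 CPM to 126.5, 123.3 and 127.0 CPM, with neither group reaching the other.

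The log2 fold-decline of PHF10 under the MI was -0.58 ± 0.05 (SE) in MOLM13, -1.08 ± 0.15 in MV4-11 and -1.12 ± 0.03 in OCI-AML3, and it met the call rule in each line. With both agents in MOLM13 it was -0.80 ± 0.05 against control and -0.73 ± 0.05 against OTX015 alone, both called. The step from the MI alone to both agents was -0.22 ± 0.05, short of the fold limit, and OTX015 alone gave -0.07 ± 0.05. The interaction, which is the MI effect in the presence of OTX015 minus that in its absence, was -0.16 ± 0.07 and was not called. The MI effect was larger by 0.52 ± 0.08 (log2) in OCI-AML3 and by 0.49 ± 0.09 in MV4-11 than in MOLM13, and both differences were called. Both come from the fit of 18 libraries, which pools the spread over the lines. The SE of 0.09 for the difference with MV4-11 is below the 0.15 of MV4-11 fitted alone, so that call is less sure than its SE shows. MV4-11 and OCI-AML3 differed from each other by 0.02 ± 0.08.

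**Figure D1:**
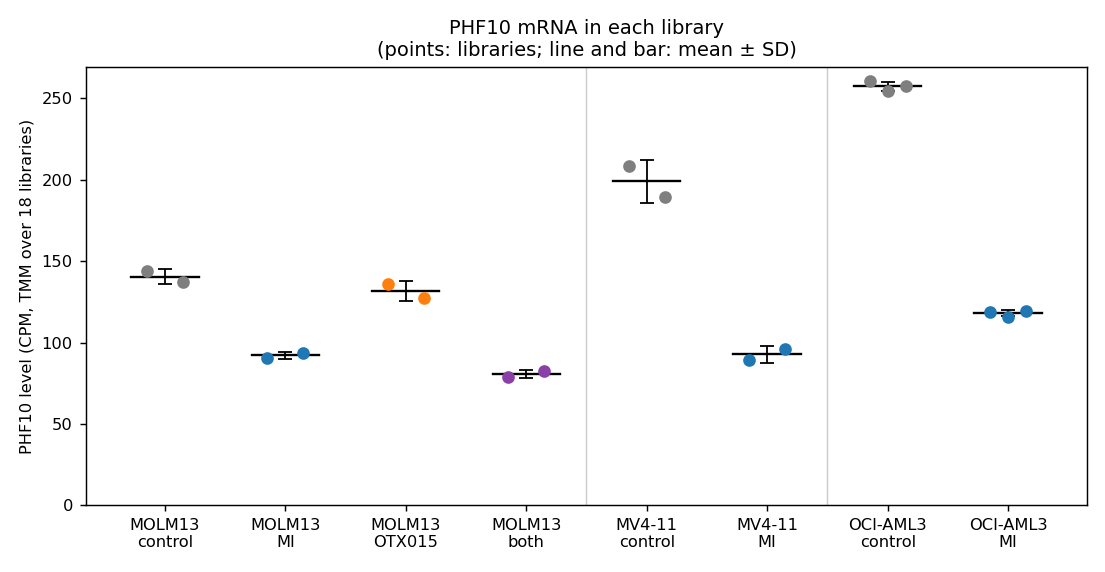
PHF10 level in each of 18 libraries, in CPM with TMM scaling over all libraries, with points for libraries and a line and bar for the group mean ± SD. All MI-treated libraries (blue) lie below the controls (grey) of their line, and the OCI-AML3 controls are the highest with a mean of 257.5 CPM.

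When all 18 libraries were scaled together, the order of the PHF10 means was OCI-AML3 control at 257.5 ± 2.9 CPM (SD, n = 3), MV4-11 control at 199.1 ± 13 (n = 2) and MOLM13 control at 140.4 ± 4.7 (n = 2). MOLM13 with OTX015 followed at 131.7 ± 6.3 (n = 2) and MI-treated OCI-AML3 at 118.1 ± 2.1 (n = 3). MI-treated MV4-11 at 92.7 ± 5.1 (n = 2) and MI-treated MOLM13 at 92.2 ± 2.3 (n = 2) overlapped each other, and MOLM13 with both agents was lowest at 80.8 ± 2.5 (n = 2). The other neighbours in this order did not overlap, although the MOLM13 control and OTX015 libraries lay close to each other and did overlap when MOLM13 was scaled alone. The lines were thus further apart in PHF10 before treatment than after it. A PHF10 pseudogene, PHF10P1, had between 0 and 8 counts per library, against at least 1470 for PHF10.

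DPF2 (chr11:65333852-65354262), the PHD finger protein of canonical BAF, did not share the decline. Its MOLM13 libraries rose from 74.1 and 73.8 CPM in controls to 102.7 and 95.3 CPM with both agents, a log2 change of 0.42 ± 0.05 that was called. With the MI alone DPF2 had 79.5 and 83.1 CPM in MOLM13 (log2 change 0.14 ± 0.05), and with OTX015 alone 85.6 and 88.7 CPM (0.24 ± 0.05), neither past the fold limit. In MV4-11 DPF2 had 105.6 and 82.7 CPM in controls and 109.4 and 104.6 CPM with the MI (0.19 ± 0.16). In OCI-AML3 it had 68.0, 65.2 and 67.0 CPM in controls and 67.5, 66.2 and 69.6 CPM with the MI (0.02 ± 0.03). The libraries overlapped in both lines.

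Per kilobase of mRNA, PHF10 made up 75.3% ± 0.7 (SD) of the summed PHF10 and DPF2 level in MOLM13 controls, 65.1% ± 0.04 with the MI, 71.2% ± 1.6 with OTX015 and 56.7% ± 1.9 with both (n = 2 each). The share was 78.7% ± 2.0 in MV4-11 controls and 60.4% ± 2.2 with the MI (n = 2 each), and 87.5% ± 0.1 and 76.1% ± 0.2 in OCI-AML3 (n = 3 each). By this measure PHF10 therefore remained the more abundant of these transcripts in every group, which rests on the mRNA lengths used. In CPM not divided by length, DPF2 had the higher mean only in MOLM13 with both agents (98.98 against 75.63) and in MI-treated MV4-11 (107.0 against 95.3).

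ARID2 (chr12:45729706-45908037), the large DNA-binding subunit of PBAF, rose with OTX015 in MOLM13 and fell with the MI in MV4-11. In MOLM13 it went with OTX015 from 55.2 and 62.0 CPM to 89.7 and 86.1 CPM, a log2 change of 0.58 ± 0.06. The MI alone left it at 60.6 and 58.2 CPM (0.02 ± 0.06), within the control range, and both agents gave 74.7 and 75.3 CPM (0.35 ± 0.06, called, but 0.27 and not called without control replicate 1). In MV4-11 ARID2 went with the MI from 68.8 and 77.8 CPM to 35.1 and 53.9 CPM, a log2 change of -0.72 ± 0.19, and the treated libraries differed from each other more than the controls did. Without MI replicate 1 of MV4-11 the change was -0.47 and was not called. In OCI-AML3 the controls had 88.0, 99.8 and 101.8 CPM and the treated libraries 74.3, 79.4 and 79.2 CPM, a change of -0.32 ± 0.05 that fell just short of the limit, and was called without control replicate 1 (-0.37) or MI replicate 2 or 3 (-0.33 and -0.32). The MI effect on ARID2 was lower in MV4-11 than in MOLM13 by 0.73 ± 0.18 (called), a difference of -0.46 without MI replicate 1 of MV4-11, which kept its call, and of -1.06 without MI replicate 2.

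ARID1A (chr1:26696015-26782104), the most often mutated subunit of canonical BAF in human tumors, rose in MOLM13 with OTX015. It went from 262.4 and 281.7 CPM in controls to 362.9 and 378.3 CPM with OTX015 and to 425.8 and 402.5 CPM with both agents, log2 changes of 0.45 ± 0.04 and 0.61 ± 0.04. The MI alone gave 325.3 and 320.2 CPM (0.25 ± 0.04), above the controls but short of the fold limit. In MV4-11 the treated libraries had 267.1 and 335.6 CPM against 388.1 and 388.9 CPM (-0.37 ± 0.16, not called), and in OCI-AML3 218.7, 245.9 and 241.8 CPM against 230.2, 243.7 and 246.1 CPM (-0.03 ± 0.04). The MI effect in MV4-11 was below that in MOLM13 by 0.60 ± 0.12 and below that in OCI-AML3 by 0.36 ± 0.11, both called, the second only while MV4-11 MI replicate 1 was kept (-0.19 without it).

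ARID1B (chr6:156776026-157210779), which takes the place of ARID1A in some BAF complexes, was called, among the treatments against control, only for both agents in MOLM13, with 162.5 to 173.0 CPM against 127.6 to 139.0 CPM in controls (0.33 ± 0.05). That value is near the fold limit and lost its call without control replicate 1 (0.26), without replicate 1 of the combination (0.29), in DESeq2 (0.32) and without the filter on low counts (0.30). By kilobase of mRNA ARID1B made up 29.0% ± 0.2 (SD, n = 2) of the ARID1A and ARID1B sum in MOLM13 controls and 25.2% ± 0.1 with both agents (n = 2), whereas in MV4-11 its share was 18.9% ± 0.7 in controls and 25.25% ± 0.5 with the MI (n = 2 each).

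Each complex holds 1 ATPase, SMARCA2 or SMARCA4, and of these SMARCA2 was called against control in MOLM13. SMARCA2 (chr9:2015347-2193620) rose in MOLM13 from 106.5 and 115.1 CPM in controls to 145.6 and 149.2 CPM with OTX015 and 195.0 and 183.4 CPM with both agents, log2 changes of 0.41 ± 0.05 and 0.77 ± 0.05. The MI alone gave 136.0 and 136.5 CPM (0.30 ± 0.05), above every control library but short of the fold limit, and was called only without control replicate 2 (0.35), without scaling factors (0.35) or with quantile normalization (0.34). SMARCA2 with both agents also exceeded the MI alone by 0.47 ± 0.05 and OTX015 alone by 0.36 ± 0.05 (both called, the latter lost without replicate 1 of the combination at 0.32). With the MI, MV4-11 had 138.7 and 165.8 CPM against 165.2 and 149.3 CPM in controls (-0.05 ± 0.15). OCI-AML3 had 115.5, 123.4 and 123.2 CPM against 119.5, 132.5 and 135.2 CPM (-0.10 ± 0.04). Treated and control libraries overlapped in both lines and neither change was called.

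SMARCA4 (chr19:10961030-11062273), the major ATPase in these cells, was not called against control in any line. MOLM13 had 602.4 and 619.4 CPM in controls, 611.1 and 635.3 with the MI, 657.6 and 675.7 with OTX015 and 549.9 and 525.8 with both. Each agent alone gave values within or above the control range while the combination lay below it, and the interaction of -0.34 ± 0.05 was called. The interaction lost its call in DESeq2 (-0.31), in the fit of all 18 libraries (-0.28), with upper-quartile factors (-0.31), and without control replicate 1 (-0.32), MI replicate 2 (-0.31), OTX015 replicate 2 (-0.32) or replicate 2 of the combination (-0.31). In MV4-11, control replicate 1 (534.3 CPM) stood above replicate 2 (416.2 CPM), and without replicate 1 the MI change moved from -0.29 to -0.11. OCI-AML3 had 393.1, 406.4 and 403.7 CPM in controls and 360.7, 371.5 and 369.9 CPM with the MI, a change of -0.13 ± 0.02 that kept the groups apart and was short of the fold limit.

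In CPM per kilobase SMARCA2 made up 15.0% ± 0.5 (SD) of the summed ATPase level in MOLM13 controls, 17.5% ± 0.4 with the MI, 17.7% ± 0.03 with OTX015 and 25.4% ± 0.2 with both agents (n = 2 each). The combination brought the share in MOLM13 into the range of untreated MV4-11 (24.45% ± 1.9, n = 2) and above that of untreated OCI-AML3 (23.8% ± 0.9, n = 3). With the MI it was 27.5% ± 2.25 (n = 2) in MV4-11 and 24.2% ± 0.4 (n = 3) in OCI-AML3. ARID2 made up 17.7% ± 0.5 (n = 2) of the ARID2 and ARID1A sum in MOLM13 controls and 15.5% ± 0.2 with the MI (n = 2), 15.9% ± 1.1 and 12.7% ± 1.6 in MV4-11 (n = 2 each), and 28.65% ± 0.9 and 24.8% ± 0.5 in OCI-AML3 (n = 3 each), without overlap in any line.

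**Figure D2:**
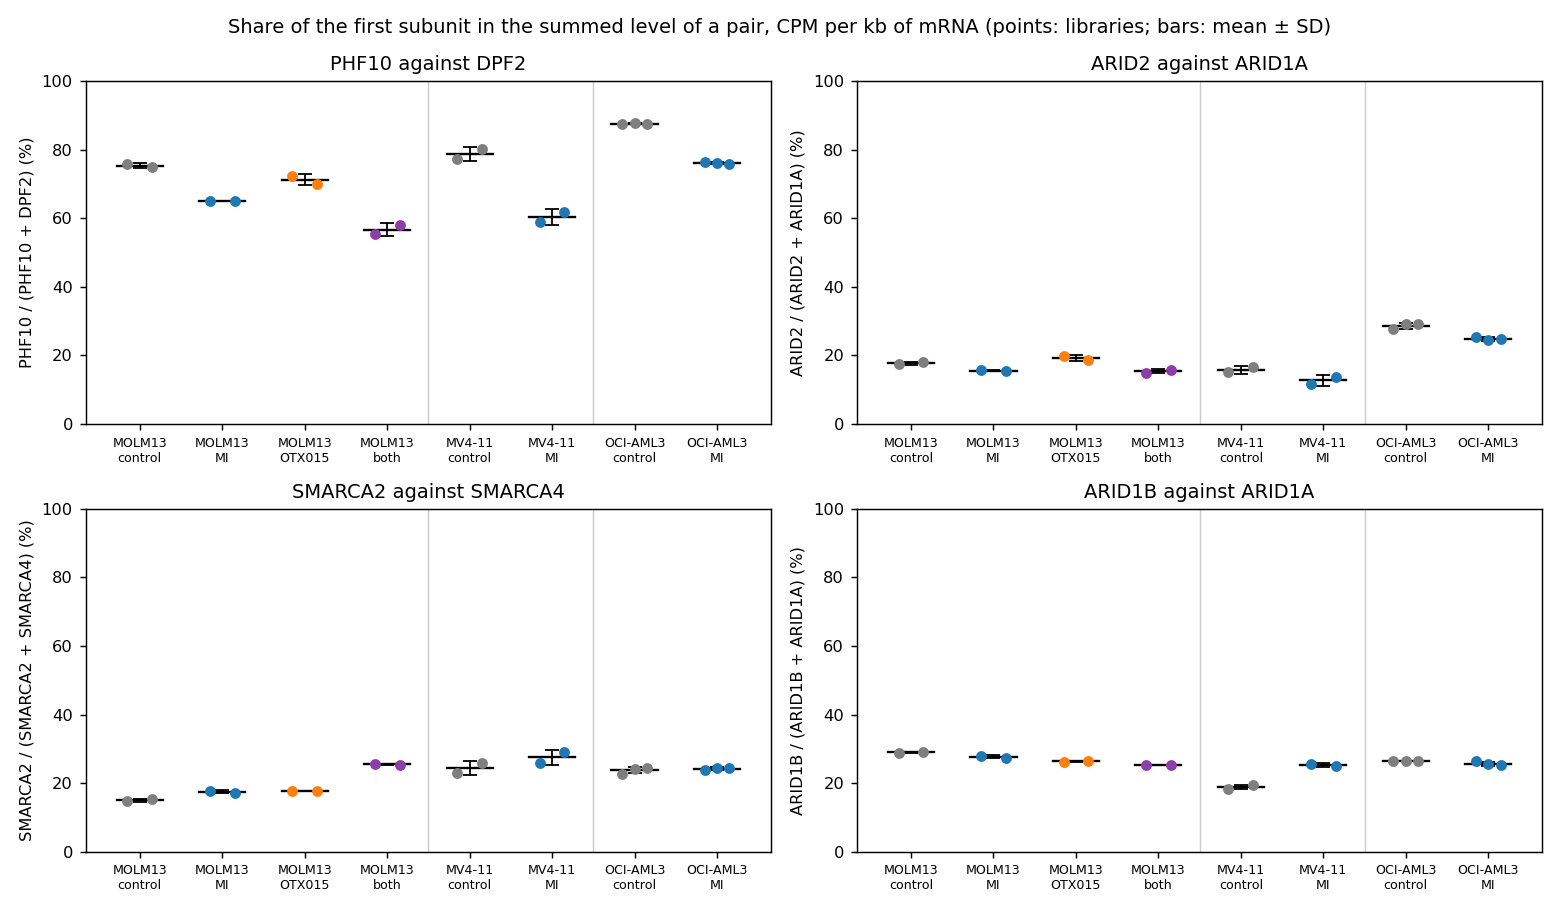
Share of the first subunit in the summed level of a pair, in percent of CPM per kilobase of mRNA, for each library (points) with group means ± SD. The PHF10 share against DPF2 is lower with the MI in each line, and the SMARCA2 share against SMARCA4 in MOLM13 stands at 25.4% with both agents against 15.0% in controls.

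SMARCC1 (chr3:47585269-47781893), a scaffold of the core module, had 340.5 and 351.0 CPM in MOLM13 controls, 373.9 and 370.9 with the MI, 334.7 and 345.2 with OTX015 and 275.1 and 266.7 with both agents. It thus fell only where the agents were combined, by 0.35 ± 0.04 against control, by 0.46 ± 0.04 against the MI and by 0.33 ± 0.04 against OTX015 on the log2 scale. The interaction of -0.43 ± 0.06 was called. The change against control was -0.24 with quantile normalization, -0.26 without scaling factors and -0.30 with upper-quartile factors, none of which met the fold limit. That against OTX015 was also lost in DESeq2 (-0.32), without OTX015 replicate 2 (-0.31) and without replicate 2 of the combination (-0.31). In MV4-11 SMARCC1 changed by -0.37 ± 0.15, with treated libraries at 212.3 and 246.8 CPM below controls at 298.8 and 294.7 CPM, and was not called. OCI-AML3 had 260.3, 274.8 and 274.6 CPM with the MI against 283.8, 304.3 and 300.6 CPM (-0.13 ± 0.03), also without overlap.

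SMARCB1 (chr22:23786966-23838009), the core subunit lost in rhabdoid tumors, was called for no treatment. Its log2 changes ran from -0.25 ± 0.05 with both agents in MOLM13 to -0.10 ± 0.05 with the MI in that line. The MOLM13 libraries had 176.8 and 182.3 CPM in controls and 156.6 and 145.5 CPM with both agents. MV4-11 had 146.4 and 133.2 CPM in controls and 136.6 and 118.3 CPM with the MI, which overlapped. OCI-AML3 libraries went from 131.9, 127.8 and 121.5 CPM to 116.3, 111.1 and 117.3 CPM (-0.14 ± 0.03).

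BCL7A (chr12:122021884-122062044), an accessory subunit of the ATPase module, separated the lines more than any treatment did. MOLM13 controls had 84.5 and 89.6 CPM and MV4-11 controls 38.3 and 42.2 CPM, while the OCI-AML3 controls held 2, 0 and 1 counts in the whole library. In MOLM13 BCL7A fell with both agents to 60.3 and 61.4 CPM, by 0.52 ± 0.05 on the log2 scale, and stood at 72.1 and 71.9 CPM with the MI (-0.28 ± 0.05) and 80.9 and 82.2 CPM with OTX015 (-0.10 ± 0.05). The MV4-11 libraries with the MI had 33.6 and 33.7 CPM (-0.26 ± 0.16, not called).

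The MI-treated OCI-AML3 libraries held 19, 23 and 18 BCL7A counts, or 0.347, 0.415 and 0.320 CPM, all above the controls. Over the group 60 counts stood against 3, a ratio of 18.9 (95% exact binomial interval 6.17 to 94.3, counting error only). The call was made on these counts, and the fitted fold change is not used as a size because it depends on the prior count. Even so, MI-treated MOLM13 had 221 times (172 to 291) and MI-treated MV4-11 had 96.5 times (74.6 to 127) the BCL7A level of MI-treated OCI-AML3.

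**Figure D3:**
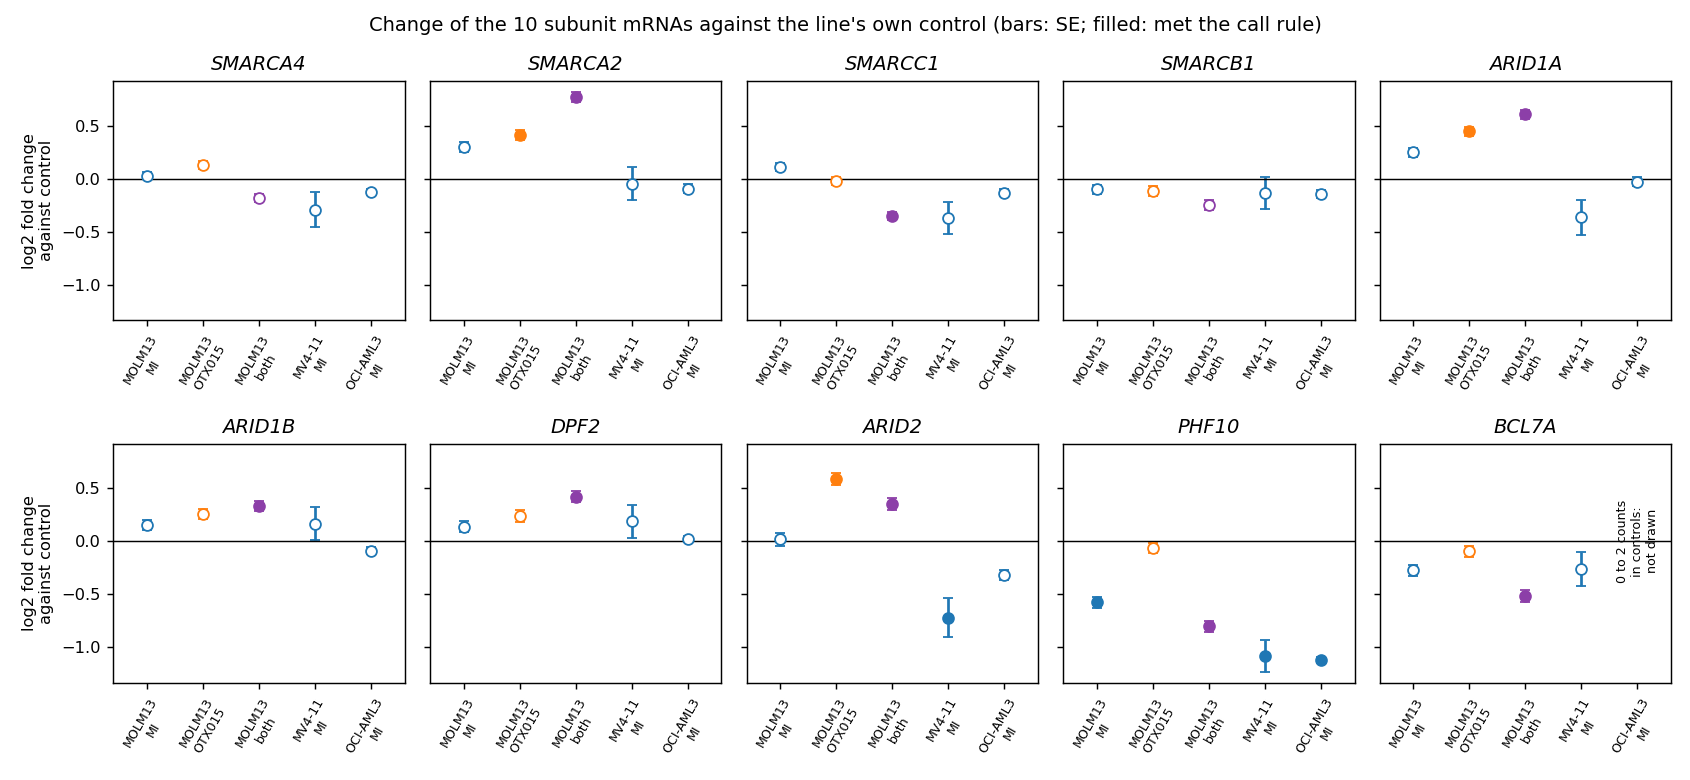
log2 fold change of each of the 10 subunit mRNAs against the control of the same line, for the MI in 3 lines and for OTX015 and both agents in MOLM13, with bars for the SE and filled points for values that met the call rule. PHF10 is the only panel with filled points for the MI in every line, and BCL7A in OCI-AML3 is not drawn because its controls held 0 to 2 counts.

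Counted over the 10 genes, the MI in MOLM13 left 0 called higher and 1 called lower (PHF10), where 8.06% of all tested genes were called higher and 5.24% lower. OTX015 in MOLM13 had 3 higher (ARID1A, ARID2 and SMARCA2) and 0 lower, against 23.5% and 24.7% of all genes. Both agents together had 5 higher (ARID1A, ARID1B, ARID2, DPF2 and SMARCA2) and 3 lower (PHF10, SMARCC1 and BCL7A), against 31.2% and 30.9%. Relative to the MI alone the combination had 3 higher and 1 lower (27.9% and 29% of all genes), and relative to OTX015 alone 1 higher and 3 lower (18.4% and 16.5%). The interaction was called for 2 of the 10, SMARCA4 and SMARCC1, and for 24.2% of all genes in either direction. These MOLM13 comparisons share libraries, so they are set side by side and not compared.

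In MV4-11 the MI had 0 members higher and 2 lower (PHF10 and ARID2), against 11.4% and 9.34% of all tested genes, and in OCI-AML3 1 higher (BCL7A) and 1 lower (PHF10), against 8.58% and 4.53%. The median log2 change of the 10 was 0.07 with the MI, 0.18 with OTX015 and 0.07 with both agents in MOLM13, where all tested genes had medians of 0.01, 0.01 and 0.02. It was -0.28 in MV4-11 and -0.11 in OCI-AML3, where the medians of all tested genes were 0.0025 and 0.0015. The MI effect differed between OCI-AML3 and MOLM13 for 2 of the 10 (4.1% of all genes), between MV4-11 and MOLM13 for 5 (20.6%) and between MV4-11 and OCI-AML3 for 2 (23.8%).

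The untreated lines differed in most genes, and the members were no exception. Between MOLM13 and OCI-AML3 controls 9 of the 10 were called, where 64.2% of all genes were. Between MV4-11 and OCI-AML3 controls it was 6 (67.4%), and between MOLM13 and MV4-11 controls 8 (63.5%). PHF10 was lower in MOLM13 than in OCI-AML3 by 0.87 ± 0.06 and than in MV4-11 by 0.50 ± 0.06 on the log2 scale, while SMARCA4 was higher in MOLM13 by 0.78 ± 0.07 and 0.47 ± 0.08. ARID1A was highest in MV4-11, 0.76 ± 0.07 above OCI-AML3 and 0.40 ± 0.08 above MOLM13. Per kilobase, PHF10 in OCI-AML3 controls (119 CPM per kb) exceeded SMARCA4 (67.8), whereas in MOLM13 controls SMARCA4 (117) exceeded PHF10 (64.8).

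Of the other 19 SWI/SNF subunit genes, 17 could be tested in MOLM13 and 18 in MV4-11 and in OCI-AML3, and ACTL6B, the neuronal actin-like subunit, had at most 4 counts in a library. SMARCD3, one of 3 alternative SMARCD core subunits and known for its role in heart and muscle, rose in each line with at least 1 treatment. Its MOLM13 libraries had 2.46 and 2.78 CPM in controls, 2.95 and 3.81 with the MI, 3.92 and 3.46 with OTX015 and 7.33 and 7.20 with both. The combination raised SMARCD3 by 1.47 ± 0.18 on the log2 scale (edgeR adjusted p = 5.03e-11) and OTX015 alone by 0.49 ± 0.20 (edgeR adjusted p = 0.0285), while the MI alone gave 0.37 and was not called. The OTX015 call was lost without control replicate 1 or OTX015 replicate 1 (0.40 each) and in DESeq2 (0.47). In MV4-11 it went from 3.49 and 3.04 CPM to 9.53 and 8.51 CPM with the MI (1.47 ± 0.22, edgeR adjusted p = 0.000214). OCI-AML3 started at 8.22, 7.03 and 7.80 CPM and reached 12.6, 11.8 and 11.0 CPM (0.62 ± 0.07, edgeR adjusted p = 1.43e-05). The response in MV4-11 exceeded that in MOLM13 by 1.13 ± 0.23 (edgeR adjusted p = 0.00172) and that in OCI-AML3 by 0.85 ± 0.17 (edgeR adjusted p = 0.000912). Its relatives SMARCD1 and SMARCD2 were not called with any treatment against control.

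PBRM1, the bromodomain subunit that defines PBAF beside ARID2 and PHF10, rose with OTX015 and was not called with the MI in any line. The MOLM13 libraries had 78.6 and 79.5 CPM in controls, 96.6 and 91.3 with the MI, 142.7 and 140.4 with OTX015 and 149.5 and 148.3 with both. OTX015 raised it by 0.84 ± 0.05 (edgeR adjusted p = 6.49e-24) and the combination by 0.91 ± 0.05 (edgeR adjusted p = 3.2e-26). BRD7, the remaining PBAF subunit, was called for no treatment against control. Of the 4 subunits that set PBAF apart (ARID2, PBRM1, BRD7 and PHF10), PHF10 alone was called with the MI in every line. ARID2 was also called lower with the MI, in MV4-11 only (-0.72). Of all tested genes, 5.24% were called lower with the MI in MOLM13, 9.34% in MV4-11 and 4.53% in OCI-AML3. ARID2 and PBRM1 were called higher with OTX015, as were 23.5% of all tested genes.

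SS18, the BAF subunit fused in synovial sarcoma, rose with OTX015 (0.52 ± 0.06, edgeR adjusted p = 1.54e-11) and with both agents (0.56 ± 0.06, edgeR adjusted p = 6.38e-13) in MOLM13 but fell by 0.49 ± 0.16 with the MI in MV4-11 (edgeR adjusted p = 0.0341). BICRA, of the non-canonical complex, rose with the MI in MOLM13 (0.38 ± 0.07, edgeR adjusted p = 7.58e-06) and MV4-11 (0.54 ± 0.16, edgeR adjusted p = 0.0233) and with both agents (0.68 ± 0.07, edgeR adjusted p = 2.26e-14). In MV4-11 the SS18 call was lost without control replicate 1 (-0.44), control replicate 2 (-0.56) or MI replicate 1 (-0.39), and the BICRA call without control replicate 1 (0.50), control replicate 2 (0.57) or MI replicate 2 (0.46). The BICRA call for the MI in MOLM13 was lost without control replicate 1 or MI replicate 2 of that line (0.30 and 0.29). BICRAL, the alternative to BICRA in the non-canonical complex, had 34.4 and 34.85 CPM in MOLM13 controls and 45.25 and 45.63 CPM with the MI. Its treated and control libraries overlapped in MV4-11 (37.98 to 50.58 against 34.41 to 38.6 CPM) and in OCI-AML3 (33.25 to 35.81 against 29.45 to 34.49 CPM). BRD9, the bromodomain protein of that complex, fell with both agents (-0.48 ± 0.05, edgeR adjusted p = 5.62e-13) and was called with neither agent alone.

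The BCL7 relatives BCL7B and BCL7C are alternative members of the same module. BCL7C had 19.01 and 16.8 CPM in MOLM13 controls, 10.5 and 10.7 with OTX015 and 11.1 and 8.65 with both, falls of 0.76 ± 0.11 (edgeR adjusted p = 1.01e-08) and 0.86 ± 0.11 (edgeR adjusted p = 3.32e-10) on the log2 scale. BCL7B fell with the MI in MOLM13 by 0.34 ± 0.06 (edgeR adjusted p = 3.08e-06), a call lost without scaling factors (-0.29) and with upper-quartile factors (-0.31). The PHD finger relatives DPF1 and DPF3 were scarce. DPF3 had 0 or 1 count per MOLM13 library and could not be tested there, went from 1 and 10 counts to 21 and 25 with the MI in MV4-11 (1.90 ± 0.61, edgeR adjusted p = 0.0362) and from 24, 19 and 17 to 41, 53 and 49 in OCI-AML3 (1.16 ± 0.22, edgeR adjusted p = 0.00103). DPF1 rose with the MI in OCI-AML3 by 0.40 ± 0.11 (edgeR adjusted p = 0.00924) and in MOLM13 by 1.14 ± 0.41 (edgeR adjusted p = 0.0275), the latter from 14 and 9 counts to 25 and 30. The DPF3 call in MV4-11 was lost without control replicate 1 (1.28) or either MI replicate (2.00 and 1.82) and in DESeq2 (1.99), and the change was 3.86 without control replicate 2. The DPF1 call was lost in MOLM13 without control replicate 2 (0.81) or either MI replicate (1.23 and 1.03) and in DESeq2 (1.12), and in OCI-AML3 without MI replicate 3 (0.29).

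**Figure D4:**
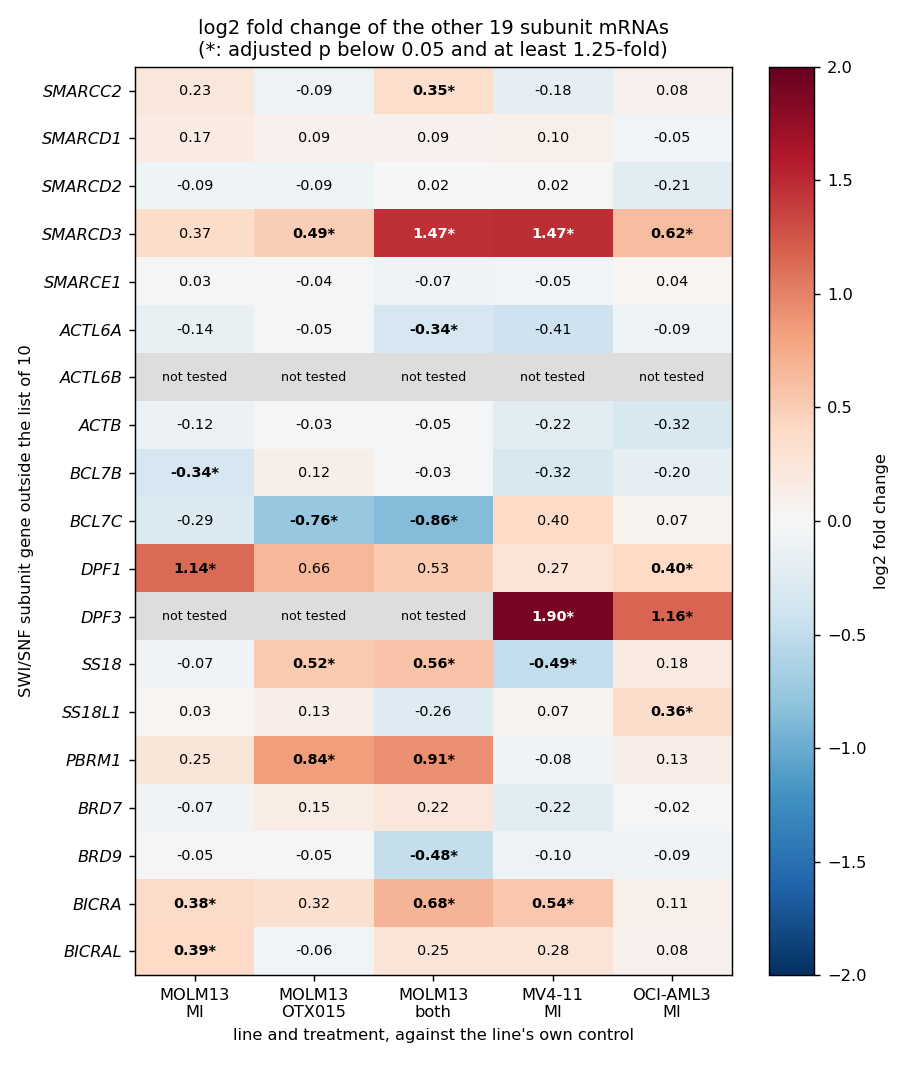
log2 fold change of the other 19 subunit mRNAs, printed in each cell and shown by color, for 5 treatments against the control of the same line, with an asterisk for called values and grey for genes that could not be tested. SMARCD3 is called in 4 of the 5 columns, and SMARCE1, SMARCD1, SMARCD2, ACTB and BRD7 in none.

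In counts, the other subunits had 3 higher and 1 lower of 17 with the MI in MOLM13, where 8.06% and 5.24% of all tested genes were called. They had 3 and 1 with OTX015 (23.5% and 24.7% of all genes) and 5 and 3 with both agents (31.2% and 30.9%). The MI had 3 higher and 1 lower of 18 in MV4-11 (11.4% and 9.34%) and 4 higher and 0 lower of 18 in OCI-AML3 (SMARCD3, DPF1, DPF3 and SS18L1), where 8.58% and 4.53% of all genes were called. ACTL6A, an actin-like subunit shared with other remodelers, fell with both agents by 0.34 ± 0.05 (edgeR adjusted p = 1.23e-07) and SMARCC2, the partner of SMARCC1, rose by 0.35 ± 0.05 (edgeR adjusted p = 1.95e-09), so the SMARCC genes moved in opposite directions. Both values are near the fold limit, and both calls were lost without control replicate 1 (-0.31 and 0.31) or replicate 1 of the combination (-0.28 and 0.32), ACTL6A also with upper-quartile factors (-0.29) and SMARCC2 without the filter on low counts (0.32).

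**Figure D5:**
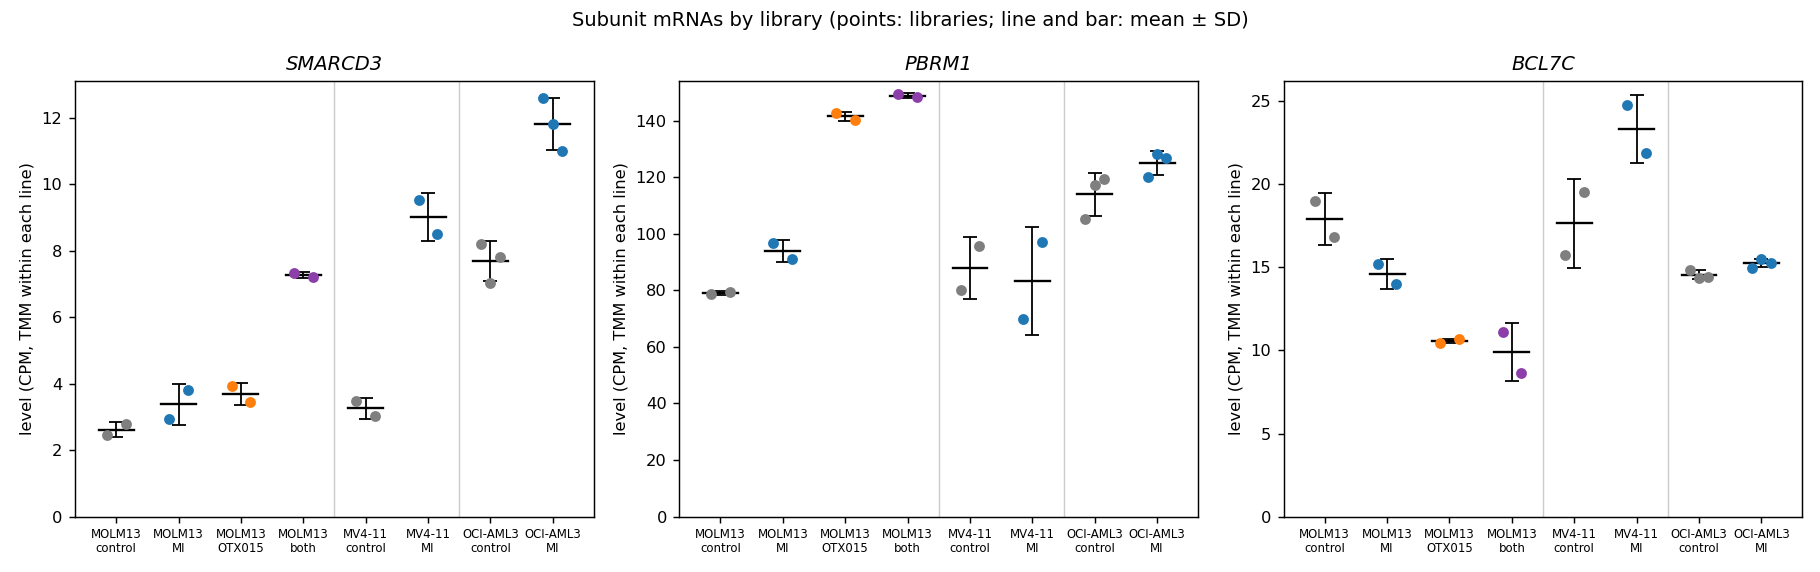
Levels of SMARCD3, PBRM1 and BCL7C in each library, in CPM with TMM scaling within each line, as points with group means ± SD. SMARCD3 is higher with the MI in MV4-11 and OCI-AML3, whereas PBRM1 is higher and BCL7C lower in the MOLM13 groups that received OTX015.

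Among 33 genes of the other remodeler families (ISWI, CHD and INO80), 31 were tested in MOLM13, with 4 higher and 1 lower under the MI, 11 and 6 under OTX015 and 12 and 8 under both. These were 16.1%, 54.8% and 64.5% of the 31, against 13.3%, 48.1% and 62.1% of all tested genes, so the shares were near the background. EP400 (0.43 ± 0.05) and INO80C (-0.42 ± 0.11) changed most with the MI, CHD3 (-1.35 ± 0.04) and EP400 (0.80 ± 0.05) with OTX015, and the AAA+ ATPases RUVBL1 (-1.34 ± 0.05) and RUVBL2 (-1.23 ± 0.04) with both agents. The MI called 2 higher and 5 lower of 32 in MV4-11, led by RUVBL1 (-0.87 ± 0.15) and CECR2 (0.83 ± 0.26), and 1 higher and 2 lower of 32 in OCI-AML3, led by CECR2 (0.90 ± 0.19) and BAZ1A (-0.85 ± 0.02). The called shares were 21.9% and 9.38% in these lines, against 20.7% and 13.1% of all tested genes. These genes were named because they were called and had the largest changes. Their edgeR adjusted p, at most 0.0322 for each log2 change named, therefore only restates that choice.

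The genes around PHF10 were read to see whether the decline extended along the chromosome. Of 11 RefSeq genes that start within 250 kb of the PHF10 start, 6 were in the count table. C6orf120, whose gene overlaps the 3′ part of PHF10 on the opposite strand, changed with the MI by -0.09 ± 0.07 in MOLM13, by -0.72 ± 0.18 in MV4-11 (edgeR adjusted p = 0.00851) and by 0.19 ± 0.04 in OCI-AML3, and rose by 0.57 ± 0.06 with OTX015 in MOLM13 (edgeR adjusted p = 3.64e-12). Reads of C6orf120 and PHF10 in the shared stretch cannot be told apart without a strand setting, and their part in the PHF10 values was not tested. C6orf120 held at most 1874 counts in any library. PHF10 ran from 1470 counts in a MOLM13 library with both agents to 15999 in an OCI-AML3 control. The genes were not compared library by library. WDR27 fell with the MI in OCI-AML3 (-0.66 ± 0.04, edgeR adjusted p = 4.62e-08), gave 0.08 ± 0.07 in MOLM13 and -0.49 ± 0.17 in MV4-11 (neither called), and rose by 0.50 ± 0.06 with OTX015 (edgeR adjusted p = 5.93e-10). ERMARD and DYNLT2, on the far side of the PHF10 start, were called for no treatment.

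The 5 genes whose pattern was most like that of PHF10 were found by Pearson correlation over 18 libraries, on log2 CPM with the mean of each line subtracted, among 11759 genes. They were an unnamed gene, ENSG00000257883.1 (r = 0.960), the RNA-binding protein gene IGF2BP2 (r = 0.957), STARD8 (r = 0.942), the chromatin reader gene SFMBT1 (r = 0.942) and the potassium channel gene KCNN2 (r = 0.936). These libraries share the treatment groups, so the values are a description of likeness only, and by rank correlation 2 of the 5 stayed among the closest 5. IGF2BP2 changed with the MI by -0.68 ± 0.05 in MOLM13, -1.65 ± 0.16 in MV4-11 and -1.15 ± 0.03 in OCI-AML3 and by 0.21 ± 0.04 with OTX015. KCNN2 changed by -0.82 ± 0.06, -1.83 ± 0.16, -0.95 ± 0.05 and 0.18 ± 0.06 in the same order. STARD8 and SFMBT1 had smaller changes, of -0.37 ± 0.06 and -0.35 ± 0.09 with the MI in MOLM13 and -0.61 ± 0.05 and -0.64 ± 0.06 in OCI-AML3.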

How the data were processed

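The table deposited by the authors holds raw counts, in whole numbers, of 58037 Ensembl gene IDs in 18 libraries. STAR and hg38 stand in the submitters' notes and TopHat2 with Cufflinks2 in the methods of the study, so the aligner is unsure. Read counter, strand handling and gene annotation: not given in the sources used here. Symbols were matched for 40894 IDs, and the rest held 0.377% of all counts. Positions and promoters came from RefSeq tables of GRCh38.p14, which hg38 denotes, and symbols of all members matched. Levels per kilobase divide by the MANE Select mRNA length (for PBRM1, Ensembl canonical).

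Quasi-likelihood models of edgeR 4.0.16 in R 4.3.3 (glmQLFit, glmQLFTest), after filterByExpr and TMM, were fitted to group means without covariates, separately for 8 MOLM13, 4 MV4-11 and 6 OCI-AML3 libraries, and for contrasts across lines in 1 fit of 18. Tested genes numbered 14360, 15486, 16611 and 17597, and p-values were adjusted by Benjamini-Hochberg over all of them. A call needed an adjusted p below 0.05 and a log2 change of at least 0.3219, the 1.25-fold limit of the study, which used limma (limma 3.58.1 served here for voom). The SE is the log2 change divided by the square root of F. In the fit of 18 libraries the spread is pooled over the lines. Its common biological coefficient of variation was 6.14%, against 3.06% in MOLM13, 13.2% in MV4-11 and 3.155% in OCI-AML3 fitted alone. CPM values are scaled within each line unless stated. A count of 0 allows up to 3 counts, or 0.0502 to 0.1553 CPM by library, and intervals cover counting error only, since reads are not independent molecules. Fits were tested on simulated data.

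The members and lists were chosen with earlier results of these data known. Named genes were the 10 members, 19 other subunits, at most 2 called genes with the largest change per comparison from 33 other remodelers, genes starting within 250 kb of PHF10, the 5 genes most like PHF10 (line-centred SD at least 0.25), and MEIS1 and HEXIM1 as checks of the agents. Replicates were separate libraries; the study describes those of MOLM13 and OCI-AML3 as biologic, and for MV4-11 this is not stated, so p-values may measure technical spread there. MV4-11 replicate numbers follow the titles (1 and 2; the descriptions say 2 and 3). Chi-square values per degree of freedom between replicates were 1.46 to 43.9, so no replicate pair agreed within sampling noise. Alternatives were DESeq2 1.42.0, limma-voom with quantile normalization, upper-quartile or no scaling factors, no filter, a replicate block, all 18 libraries in 1 fit, and leaving out each library. The summed level of the erythroid markers is not reported here.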

Additional observations from a re-analysis of the deposited data

Results flagged for a closer look

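Differences between effects that were tested and called are listed here with their log2 size. In MOLM13 the MI effect was lower in the presence of OTX015 than in its absence for SMARCC1 (-0.43), SS18L1 (-0.43), BRD9 (-0.39) and SMARCA4 (-0.34). The MI effect in OCI-AML3 minus that in MOLM13 was -0.52 for PHF10. The MI effect in MV4-11 minus that in MOLM13 was -0.73 for ARID2, -0.60 for ARID1A, -0.49 for PHF10, -0.47 for SMARCC1, -0.41 for SS18, -0.33 for SMARCA2, 0.70 for BCL7C and 1.13 for SMARCD3. The MI effect in MV4-11 minus that in OCI-AML3 was -0.69 for SS18, -0.36 for ARID1A, -0.34 for ACTL6A, 0.41 for BICRA and 0.85 for SMARCD3. Leaving out a library ended or moved some of these calls. ARID2 against MOLM13 was -0.46 without MV4-11 MI replicate 1 and stayed called. BRD9 was -0.31 without replicate 2 of the combination. SS18 against MOLM13 was -0.28 without MV4-11 MI replicate 1, -0.37 without MOLM13 MI replicate 1 and -0.38 without MOLM13 control replicate 1. SMARCA2 was -0.27 and -0.40 without MOLM13 control replicate 1 and 2, -0.33 without either MOLM13 MI replicate, -0.25 without MV4-11 control replicate 1 and -0.22 without MV4-11 MI replicate 1. ARID1A against OCI-AML3 was -0.19 without MV4-11 MI replicate 1, and ACTL6A was -0.27 without MV4-11 control replicate 2 and -0.31 without MV4-11 MI replicate 2. MV4-11 received 1000 nM SNDX-50469 in another medium, which cannot be told apart from the line. Differences between lines also rest on a spread pooled over the lines, which was below that of MV4-11 alone. ARID1A and SMARCC1, for example, were not called in MV4-11 fitted alone (-0.37 ± 0.16 and -0.37 ± 0.15).

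BCL7A also differed, with fitted values of 4.29 for OCI-AML3 minus MOLM13 and -4.27 for MV4-11 minus OCI-AML3. These fitted values depend on the prior count, since the OCI-AML3 controls held 0 to 2 counts.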

How the results depend on the processing

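Over 1660 alternative values for the 10 genes, 1549 stayed on the same side of the call rule, 71 lost the call and 40 gained it. No value reversed a called direction. Values that were not called could change sign. ARID2 under the MI in MOLM13, for example, ran from -0.07 to 0.10 with a library left out. The PHF10 difference between MV4-11 and OCI-AML3 controls was -0.30 with upper-quartile factors and lost its call. For all genes, the MI in MV4-11 called 3208 genes, 5934 in the fit of 18 libraries and 1637 to 3340 with a library left out (1798 without control replicate 1 and 1637 without MI replicate 1). The difference in MI effect between OCI-AML3 and MOLM13 called 721 genes and 462 to 684 with a library left out, the low values coming without either MOLM13 control (467 and 473) or MOLM13 MI replicate 2 (462). PHF10 under the MI stayed within -0.62 to -0.54 in MOLM13, -1.14 to -1.04 in MV4-11 and -1.12 to -1.10 in OCI-AML3 with a library left out.

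Without scaling factors the median of all tested genes moved from -0.05 to -0.24 between MOLM13 and OCI-AML3 controls and from -0.06 to -0.21 between MOLM13 and MV4-11 controls. The share of calls that were higher went from 60.6% to 74.4% for the MI in MOLM13, where DESeq2 gave 50.04%, no filter 49.5% and the fit of 18 libraries 47.6%. It went from 65.5% to 76.6% in OCI-AML3, where quantile normalization gave 50.8%. For the interaction it was 47.6% and, in the fit of 18 libraries, 58.8%. Same-numbered libraries deviated together with correlations of only -0.045 to 0.098, the highest in MV4-11, so the numbers gave little sign of pairing. The replicate block left all 80 values of the 10 genes on the same side of the call rule (PHF10 under the MI in MOLM13 at -0.58). Over all genes it called 4029 with the MI in MV4-11, against 3208 without it. In MOLM13 it called 1847 against 1910 and in OCI-AML3 2242 against 2178. Whether the MV4-11 libraries were paired is therefore left undecided.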
